A study of Mus musculus with 4 samples.

Results

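The Notch receptors Notch1, Notch2, Notch3 and Notch4, the ligands Dll1, Dll3, Jag1 and Jag2 and the target genes Hes1 and Hey1 were followed across all 4 arrays of a study of mouse embryonic stem (ES) cells differentiating toward blood. Every probe set whose only gene symbol in the array annotation was one of these 10 names was taken, whatever its values. The 10 genes themselves, and the lists used below, were chosen with earlier results of these data known. This gave 12 probe sets for 8 of the 10 genes, out of 8251 genes measured in all. Notch1, Notch2, Notch4 and Dll1 had 2 probe sets each. Dll3 and Jag1 had none and were not analysed here.

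Biotin-labelled RNA was measured on single-colour arrays, 2 titled Hemangioblast and 2 titled hCD4. All of the cells derive from 1 ES line, called Scl+/hCD4. As that name is written, human CD4 stands in for 1 copy of Scl, the blood transcription factor encoded by Tal1. The other copy (+) is normal. No mutation, treatment or dose separates the groups. The study text describes embryoid bodies grown for 2.75 days with serum, from which cells carrying both Scl and Flk-1 (a VEGF receptor, the product of Kdr) were sorted as hemangioblasts. It also describes replated embryoid body cells whose blast colonies were picked and pooled, and it calls its populations hCD4 and Blast. The source labels give differentiated hemangioblasts for the Hemangioblast arrays and ES cells for the hCD4 arrays. These labels disagree on which cells each array holds, so the groups are called by their array titles. A title is not taken here as the identity of the cells. As given below, regulators of the hemangioblast stage summed lower on the Hemangioblast arrays, and myeloid and erythroid markers summed higher. No label ties the 2 arrays of a group to separate cultures, and p-values then measure only the spread between arrays, which may be technical.

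Notch proteins are receptors that bind Delta and Jagged ligands on neighbouring cells. Ligand binding leads to cleavage by ADAM proteases and by gamma-secretase, and the freed intracellular part enters the nucleus, joins the DNA-binding protein RBPJ and switches on targets such as the Hes and Hey repressors. In the mouse embryo Notch1 is needed for blood stem cells to arise from arterial endothelium, and Notch signalling also directs arterial fate.

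On the Hemangioblast arrays the Notch targets and most receptors read lower than on the hCD4 arrays, but only Hes1 passed the test. Of the 8 genes, each by its brightest probe set, 1 fell and 0 rose at a limma p adjusted over all probe sets of under 0.05. Over all genes 5.38% were called, 1.95% as lower and 3.43% as higher, and with 8 genes a single call is no excess that these data can establish. For 6 of the 8 genes both Hemangioblast arrays lay below both hCD4 arrays, against 22.0% of all genes, and these include Notch2, whose other probe set read higher. The median log2 change (Hemangioblast minus hCD4) was -0.53 over the 8 genes, and 0.02 over all genes. The changes are modest. No probe set of the 12 (0 of 12) was 2-fold or more apart, with 1 sign, for each of the 4 pairings of a Hemangioblast with an hCD4 array, a rule that 2.89% of all probe sets met. At an unadjusted p under 0.05 stood 4 of the 8 genes, against 18.3% of all genes.

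**Figure D1:**
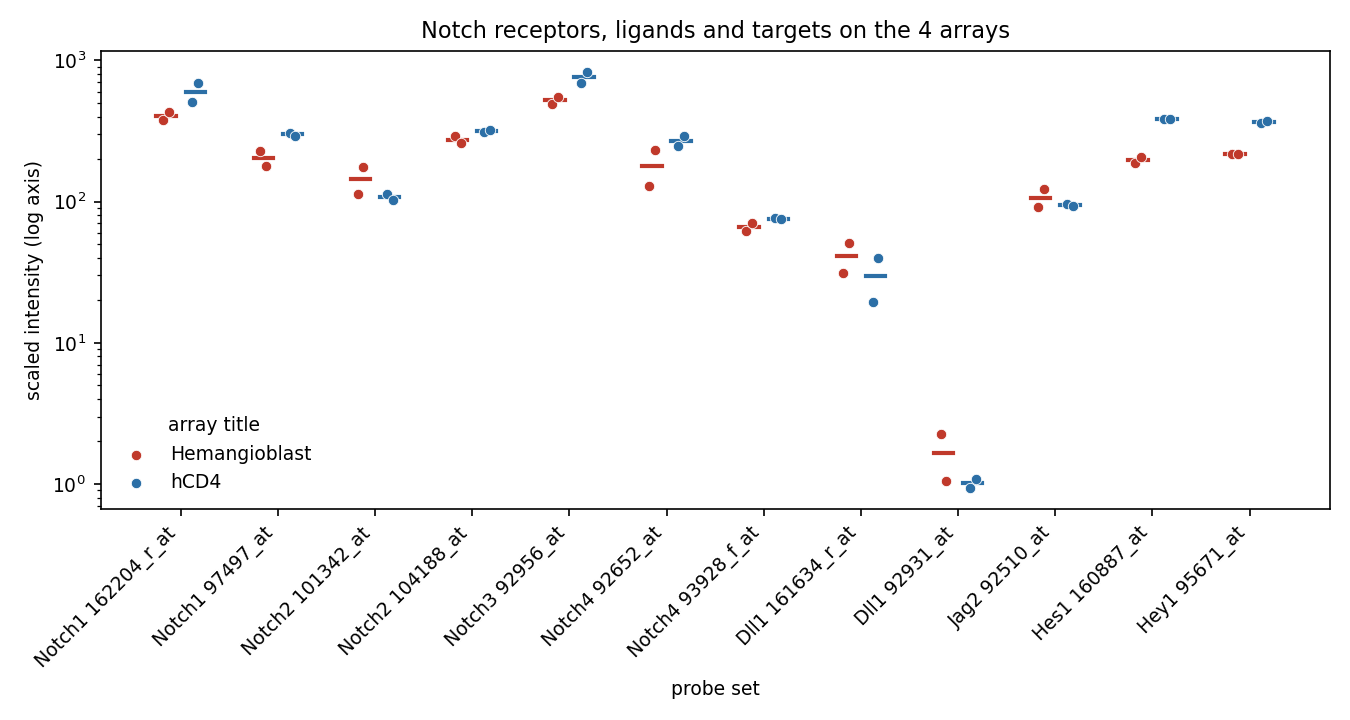
Scaled intensity (log axis) of the 12 probe sets on the 4 arrays, as points, with the mean of each pair of arrays as a line, Hemangioblast in red and hCD4 in blue. The Hemangioblast arrays lie below the hCD4 arrays for Notch1, Notch3, Notch4, Hes1 and Hey1, the probe sets of Notch2 go opposite ways, and those of Dll1 are dim; levels of different probe sets cannot be compared with each other.

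Neither of the measured ligands passed the test. Jag2, a Jagged ligand, had scaled intensities of 91.3 and 122 on the Hemangioblast arrays, against 96.5 and 93.3 on the hCD4 ones. The groups overlapped, since the Hemangioblast arrays held both the lowest and the highest value. The log2 change was 0.14, with a 95% interval of -0.56 to 0.83 and a limma adjusted p of 0.903. Its sign turned with quantile normalization (log2 change -0.01) and without Hemangioblast replicate 2 (-0.05).

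Dll1, a Delta ligand that is active in the paraxial mesoderm of the embryo, was at the dim end of the arrays. Its brighter probe set read 31.2 and 50.8 on the Hemangioblast arrays, against 19.5 and 40.0 on the hCD4 ones, and the groups overlapped. Between 6.32% and 15.2% of all probe sets on the same array were dimmer. Its log2 change was 0.33 (95% interval -0.56 to 1.23, limma adjusted p = 0.781). Each of the 4 arrays moved this value: it was 0.58 without Hemangioblast replicate 1, 0.08 without Hemangioblast replicate 2, 0.0053 without hCD4 replicate 1 and 0.67 without hCD4 replicate 2. The other Dll1 probe set read 2.28 and 1.05 on the Hemangioblast arrays, against 0.936 and 1.09 on the hCD4 ones, which is the bottom of the scale, where a fold cannot be interpreted (log2 change 0.05, adjusted p = 0.975). These readings do not show whether Dll1 was expressed.

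The receptors were measured by 7 probe sets, 6 of which read lower on both Hemangioblast arrays than on either hCD4 array, against 19.7% of all probe sets. At the adjusted threshold 0 of the 7 passed in limma, against 4.48% of all probe sets called, and 3 of the 7 had an unadjusted p under 0.05, against 16.3% of all probe sets. Notch1, the receptor with the best known part in blood stem cell formation, had scaled intensities of 377 and 429 on the Hemangioblast arrays, against 503 and 695 on the hCD4 ones. The groups did not overlap, but hCD4 replicate 2 stood well above replicate 1. The log2 change was -0.54 (SE 0.207, 95% interval -1.02 to -0.06, limma adjusted p = 0.236), and it was -0.77 without hCD4 replicate 1 and -0.31 without hCD4 replicate 2. The second Notch1 probe set gave 228 and 180 on the Hemangioblast arrays, against 307 and 293 on the hCD4 ones, and again no array of one group reached the other. Its log2 change, -0.53 (SE 0.227, adjusted p = 0.297), was close to that of the first. Both probe sets are annotated to Notch1 and were read on the same arrays, so they are not independent.

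Notch3, a receptor known from vascular smooth muscle and pericytes, had 495 and 548 on the Hemangioblast arrays, against 688 and 833 on the hCD4 ones. All of the Hemangioblast readings were lower, by a log2 change of -0.53 (SE 0.176, 95% interval -0.93 to -0.12). With a limma adjusted p of 0.165 it had the smallest p among the receptors and did not pass. Notch4, a receptor mainly of endothelial cells, read 128 and 230 on the Hemangioblast arrays, against 248 and 290 on the hCD4 ones. Here the Hemangioblast arrays lay far apart, and replicate 2 came close to the hCD4 values. The log2 change of Notch4 was -0.59 (95% interval -1.28 to 0.09, adjusted p = 0.396), and it was -0.21 without Hemangioblast replicate 1 and -0.98 without replicate 2. The other Notch4 probe set, whose suffix marks probes shared within a sequence family, read 61.6 and 71.1 on the Hemangioblast arrays, against 75.9 and 74.8 on the hCD4 ones (log2 change -0.15, adjusted p = 0.892, and -0.07 without Hemangioblast replicate 1 or -0.24 without replicate 2).

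Notch2, a receptor found in many tissues including myeloid and B cells, was the receptor whose probe sets disagreed. The brighter one read 289 and 258 on the Hemangioblast arrays, against 313 and 323 on the hCD4 ones, a log2 change of -0.21 (95% interval -0.67 to 0.26, limma adjusted p = 0.723). The dimmer one read 114 and 176 on the Hemangioblast arrays, against 112 and 103 on the hCD4 ones, a log2 change of 0.36 (95% interval -0.35 to 1.06, adjusted p = 0.676). In each case the groups did not overlap, but in opposite directions. Without Hemangioblast replicate 2 the changes were -0.13 and 0.07, and without Hemangioblast replicate 1 they were -0.28 and 0.64. No direction is therefore given for Notch2, and with the mean of its probe sets the log2 change was 0.08 (adjusted p = 0.917).

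The Hes and Hey targets showed the largest and most even differences of the set. Hes1, a repressor that answers Notch in many tissues and also other signals, had scaled intensities of 187 and 206 on the Hemangioblast arrays, against 384 and 384 on the hCD4 ones. Replicates of a group lay close together, and the Hemangioblast readings were about the same distance below on every pair of arrays. The mean was 196 ± 13.9 on the Hemangioblast arrays, against 384 ± 0.0584 on the hCD4 ones (SD, n = 2 each), a ratio of 0.512. Hes1 fell by 0.91 on the log2 scale (SE 0.206, 95% interval -1.39 to -0.44, limma adjusted p = 0.0477). This call lies at the edge of the threshold. The adjusted p was 0.124 without Hemangioblast replicate 1, 0.0979 without Hemangioblast replicate 2, 0.202 without hCD4 replicate 1 and 0.244 without hCD4 replicate 2, while the log2 change stayed between -0.85 and -0.98. It was also 0.0541 with an added constant of 64, 0.121 when the variance model had no intensity trend and 0.108 with unscaled arrays.

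Hey1, a related repressor that acts with Notch in arteries and heart, read 218 and 217 on the Hemangioblast arrays, against 362 and 369 on the hCD4 ones. The groups were clearly apart and the replicates nearly equal. The mean was 217 ± 0.861 on the Hemangioblast arrays, against 366 ± 5.16 on the hCD4 ones (SD, n = 2 each), a ratio of 0.594. Its log2 change of -0.71 (SE 0.202, 95% interval -1.17 to -0.25) did not pass, with a limma adjusted p of 0.104. The fit weighs the spread of each pair of arrays against the variance typical of probe sets of that brightness, so the near equal replicates alone do not give Hey1 a small p.

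**Figure D2:**
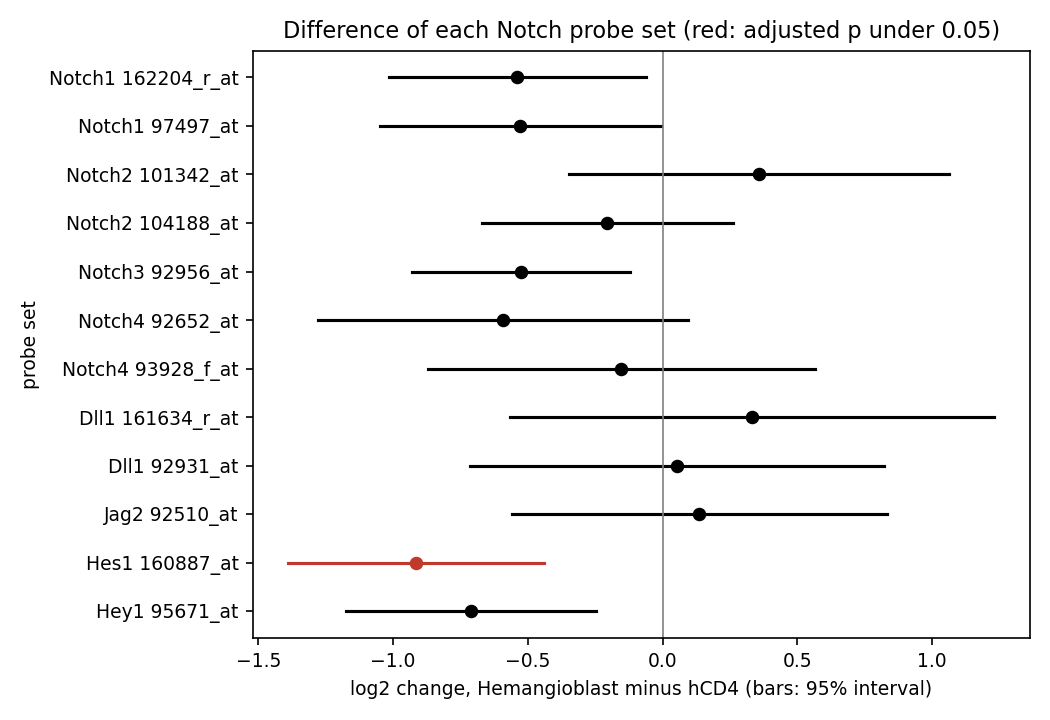
Log2 change of each probe set, Hemangioblast minus hCD4, as a point with its 95% interval from limma as a bar, in red where the adjusted p was under 0.05. Hes1 at -0.91 is the only red point, and the intervals of Hey1, Notch3 and both Notch1 probe sets also lie below 0 before adjustment.

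In bulk RNA, fewer cells of a type and less RNA per cell cannot be told apart, and the populations differed in cell markers. Beside the counts of called markers in this and the next paragraph, 3.43% of all genes were called higher and 1.95% lower. Among regulators of the hemangioblast stage, Kdr, Gata2 and Etv2 fell among 7 (Etv2 is named after its values were seen), and the summed scaled intensity of all 7 was 3163 and 3655 on the Hemangioblast arrays, against 5966 and 7313 on the hCD4 ones. Kdr, a gene of the sort, read 648 and 570 on the Hemangioblast arrays, against 1625 and 2003 on the hCD4 ones, and so was lower on the arrays whose title names hemangioblasts. Tal1, which encodes Scl, the other gene of the sort, was named after its values were seen. It read 391 and 333 on the Hemangioblast arrays, against 597 and 696 on the hCD4 ones. Its log2 change of -0.81 just missed the threshold (limma adjusted p = 0.0513). Markers of primitive streak and paraxial mesoderm, where Delta ligands and Hes genes are active in the embryo, summed to 1659 and 2014 on the Hemangioblast arrays, against 5580 and 4828 on the hCD4 ones, and Cyp26a1 and Eomes fell among 11. Most of that gap was Cyp26a1 and Eomes, though the middle log2 change of the 11 genes was -0.73. The groups overlapped for Mesp2 (log2 change 0.06) and for Tbx6 (-0.07, named after its values were seen). The sums thus do not show a drop shared by every marker of the list. Myeloid markers summed to 10584 and 10980 on the Hemangioblast arrays, against 1335 and 1576 on the hCD4 ones, with 10 of 14 higher and 0 lower. Erythroid markers summed to 39115 and 41647 on the Hemangioblast arrays, against 13657 and 14590 on the hCD4 ones, with 8 of 11 higher and 0 lower. Most of that gap was in globin genes, though the middle log2 change of the 11 genes was 1.23. Those not called, named after their values were seen, were Gata1 (0.52, limma adjusted p = 0.249), Klf1 (0.35, adjusted p = 0.282) and Epb42 (1.03, adjusted p = 0.125). The part of these shifts in the Notch readings was not tested.

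General endothelial markers went both ways. Their sum was 6180 and 5726 on the Hemangioblast arrays, against 5922 and 6770 on the hCD4 ones, and of 13 measured, Tie1 and Vwf rose and Kdr fell (Vwf is named after its values were seen). In the arterial list 1 of 7 fell, Efnb2, and 0 rose, with sums of 2222 and 2211 on the Hemangioblast arrays, against 2971 and 3717 on the hCD4 ones. Most of that gap was Efnb2 itself, which is counted again below among the targets that answer to many signals. The middle log2 change of the 7 genes was 0.02. Neither Nrp1 (-0.70, adjusted p = 0.114 in limma) nor Acvrl1 (0.38, adjusted p = 0.342) passed, so the sums do not show a general arterial loss. Of the pluripotency markers 2 of 12 fell, Pou5f1 and Dppa5a, with sums of 4860.2 and 4893 on the Hemangioblast arrays, against 8182 and 6183 on the hCD4 ones. The brightest of these markers was Esrrb, which read 3343 and 3476 on the Hemangioblast arrays, against 3165 and 3579 on the hCD4 ones. The hCD4 arrays differed in other markers of this list: Pou5f1 read 104 and 144 on the Hemangioblast arrays, against 1526 and 585 on the hCD4 ones, and Nanog, named after its values were seen, read 86.9 and 73.4 on the Hemangioblast arrays, against 444 and 141 on the hCD4 ones. With hCD4 replicate 1 left out, the log2 change was -0.91 for Hes1, -0.72 for Hey1 and -0.66 for Notch3. The hCD4 array kept still read above both Hemangioblast arrays for Pou5f1 and Nanog. Leaving out replicate 1 thus does not remove that difference, and its part in the Notch readings was not tested. Fibroblast markers, fixed because ES cells are kept on feeder cells, summed to 2958 and 3846 on the Hemangioblast arrays, against 2871 and 2425 on the hCD4 ones, and Col3a1 rose among 11 (named after its values were seen). Of the 9 neural markers 0 were called in limma and 0 had an unadjusted p under 0.05, against 18.3% of all genes. Of the 7 smooth muscle markers Acta2 rose. Against that one rise, the smooth muscle sum was 1151 and 1141.5 on the Hemangioblast arrays, against 1434 and 1325 on the hCD4 ones, and Tagln, an actin-binding protein, had a log2 change of -0.92 that missed the threshold (adjusted p = 0.0656). No marker of these lists was under 16 on all 4 arrays except Smtn in the smooth muscle list (named after its values were seen), and 1 myeloid marker was under 16 on both hCD4 arrays.

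Beyond the 10 names, a list of 108 genes of the Notch pathway was written out by function, and 66 of them were measured. Of these 5 rose and 4 fell, against 3.43% and 1.95% of all genes. The median log2 change was -0.005, beside 0.02 over all genes, and 33 of the 66 had a negative change. Leaving aside targets that many other pathways also control, 3 of 51 rose and 0 fell. The count of 9 was 5 without either Hemangioblast array in turn, 3 without hCD4 replicate 1 and 1 without hCD4 replicate 2, and with median scaling 3 rose and 4 fell. It was 2 without scaling between arrays and 2 without an intensity trend.

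**Figure D3:**
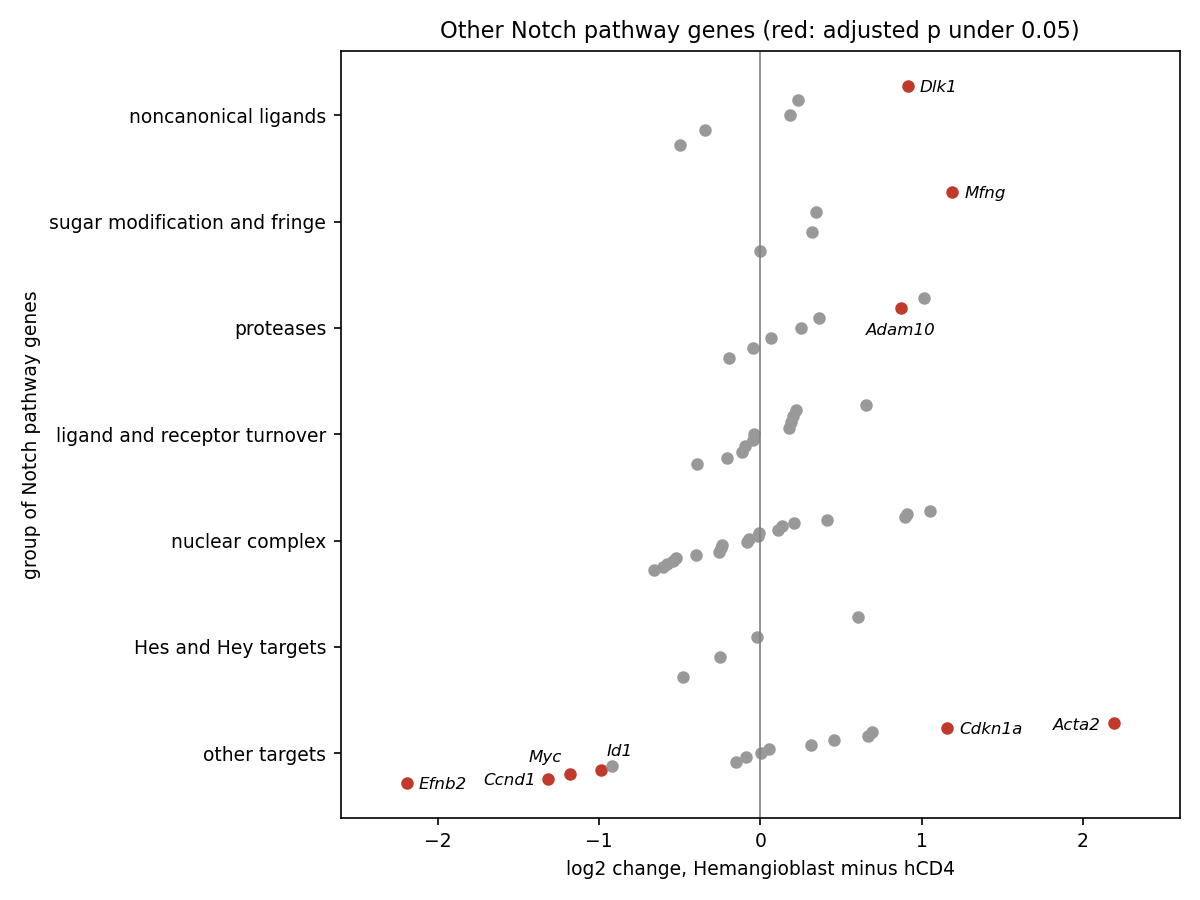
Log2 change, Hemangioblast minus hCD4, of 66 further Notch pathway genes by function, 1 point per gene, in red and named where the adjusted p was under 0.05. The 3 red points outside the broad targets, Dlk1, Mfng and Adam10, lie to the right, and most other points lie near 0.

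Among the noncanonical ligands, listed apart from the Delta and Jagged ligands, 1 gene rose. This was Dlk1, an imprinted gene whose product resembles Delta and has been described as a Notch antagonist. It read 597 and 692 on the Hemangioblast arrays, against 376 and 297 on the hCD4 ones (log2 change 0.91, SE 0.196, limma adjusted p = 0.0390). The readings of the groups were well apart. Mfap2, a protein of microfibrils (log2 change -0.50, adjusted p = 0.590), and Ccn3, a matricellular protein (adjusted p = 0.766), were among the 4 of 5 that did not pass. Ccn3 lay at the bottom of the scale, with readings of 0.939 and 1.5 on the Hemangioblast arrays, against 0.936 and 12.0 on the hCD4 ones, so its change is not given.

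Mfng, a Fringe enzyme that adds sugar to Notch and alters which ligand it answers, read 316 and 342 on the Hemangioblast arrays, against 133 and 137 on the hCD4 ones. All Hemangioblast readings were over those of hCD4, and the rise of 1.19 on the log2 scale passed (SE 0.226, limma adjusted p = 0.0242). The other Fringe genes, Rfng (log2 change 0.32, adjusted p = 0.526) and Lfng (0.34, adjusted p = 0.769), did not, and Lfng was dim.

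Among the proteases Adam10, which makes the first cut after ligand binding, read 622 and 722 on the Hemangioblast arrays, against 389 and 332 on the hCD4 ones. This rise of 0.87 on the log2 scale passed (SE 0.184, limma adjusted p = 0.0373), but a second Adam10 probe set did not (log2 change 0.31, adjusted p = 0.718). Psen2, a catalytic subunit of gamma-secretase, read 306 and 215 on the Hemangioblast arrays, against 139 and 102 on the hCD4 ones, with a log2 change of 1.02 that missed the threshold (adjusted p = 0.102). Furin, which cuts the receptor on its way to the surface, had a log2 change of 0.25 (adjusted p = 0.502). The calls of Dlk1, Mfng and Adam10 were all lost when any 1 array was left out, with adjusted p-values of up to 0.254, 0.136 and 0.243 in that order. With all arrays kept, the 3 calls were also lost without scaling and without an intensity trend, and those of Dlk1 and Adam10 with median scaling, with adjusted p-values of up to 0.158 for Dlk1, 0.0617 for Mfng and 0.157 for Adam10.

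Over all genes 5.38% passed at the adjusted threshold in limma and 18.3% had an unadjusted p under 0.05. Of 11 genes of ligand and receptor turnover 0 did either. The 3 with the smallest p were Sel1l, an adaptor of protein quality control (log2 change 0.65, adjusted p = 0.480), and the endocytic adaptors Epn1 (0.22, adjusted p = 0.562) and Epn2 (-0.20, adjusted p = 0.674). A second Sel1l probe set gave 0.62 (adjusted p = 0.373). Nedd4, a ubiquitin ligase named after its values were seen, had a second probe set outside this count with a log2 change of -0.42 (unadjusted p = 0.0187, adjusted p = 0.175), while the brighter one gave -0.09 (adjusted p = 0.851). Of 20 nuclear cofactors 0 passed, and 5 had an unadjusted p under 0.05, a share near the 18.3% of all genes. Tle5, a short member of the Groucho corepressor family, came nearest, with 528 and 728 on the Hemangioblast arrays, against 239 and 354 on the hCD4 ones (log2 change 1.05, adjusted p = 0.0554). The acetyltransferase gene Kat2b (0.90, adjusted p = 0.0805, and 0.13 in a second probe set, adjusted p = 0.922) and the corepressor scaffold gene Sin3a (-0.61, adjusted p = 0.0889) followed. Rbpj, the DNA-binding partner of all Notch receptors, named here for that role after its values were seen, read 167 and 188 on the Hemangioblast arrays, against 170 and 210 on the hCD4 ones. Its groups overlapped (log2 change -0.09, 95% interval -0.66 to 0.49, adjusted p = 0.934).

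Of the 4 further Hes genes measured, 0 passed and 1 had an unadjusted p under 0.05, against 5.38% and 18.3% of all genes. Hes6, which is known to oppose Hes1 in nerve cell development, read 239 and 242 on the Hemangioblast arrays, against 156 and 149 on the hCD4 ones. Its readings were higher on both Hemangioblast arrays, unlike those of Hes1, but the log2 change of 0.61 did not pass (SE 0.234, limma adjusted p = 0.237). Hes5 had a log2 change of -0.48 (adjusted p = 0.553) and Hes3 one of -0.25 (adjusted p = 0.844).

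Among genes that Notch is known to drive in some tissues but that answer to many other signals, 4 of 15 fell and 2 rose, against 1.95% and 3.43% of all genes. Efnb2, an ephrin that marks arteries, read 293 and 238 on the Hemangioblast arrays, against 1113 and 1438 on the hCD4 ones, the widest gap of the list among genes that fell (log2 change -2.19, SE 0.197, limma adjusted p = 0.000671). Of the 9 it alone passed both in all 8 fits that kept every array and its own probe set and with each of the 4 arrays left out in turn, with an adjusted p of at most 0.0190. The cell cycle gene Ccnd1 read 526 and 381 on the Hemangioblast arrays, against 1164 and 1114 on the hCD4 ones (-1.31, adjusted p = 0.00704), though a second Ccnd1 probe set gave -0.31 (adjusted p = 0.550). The growth regulator Myc read 185 and 146 on the Hemangioblast arrays, against 398 and 388 on the hCD4 ones (-1.18, adjusted p = 0.0236). Id1, best known as a target of BMP signals, read 752 and 589 on the Hemangioblast arrays, against 1386 and 1290 on the hCD4 ones (-0.99, adjusted p = 0.0164). In each of these 4 the groups stood clear of each other.

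The members that rose were Cdkn1a, an inhibitor of the cell cycle, and Acta2, the actin of smooth muscle. Cdkn1a read 866 and 696 on the Hemangioblast arrays, against 386 and 299 on the hCD4 ones (log2 change 1.16, limma adjusted p = 0.0171), and a second probe set gave 0.49 (adjusted p = 0.300). Acta2 read 177 and 134 on the Hemangioblast arrays, against 28.8 and 14.9 on the hCD4 ones (2.19, adjusted p = 0.0124), and as the hCD4 values are near 16, the added constant, part of this change is set by that constant. With 1 array left out the adjusted p reached 0.0721 for Ccnd1 and 0.131 for Id1, whose calls were lost when 1 hCD4 array, whichever it was, was left out. It reached 0.145 for Myc, whose call was lost with any 1 array left out other than Hemangioblast replicate 1. It reached 0.132 for Cdkn1a and 0.0708 for Acta2, whose calls were lost without Hemangioblast replicate 1 or hCD4 replicate 2. With all arrays kept, the calls of Ccnd1, Id1, Myc and Cdkn1a were also lost without scaling between arrays and without an intensity trend, with adjusted p-values of up to 0.0785, 0.129, 0.0846 and 0.109 in that order, while Acta2 passed under all 7 such settings that gave it a value.

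**Figure D4:**
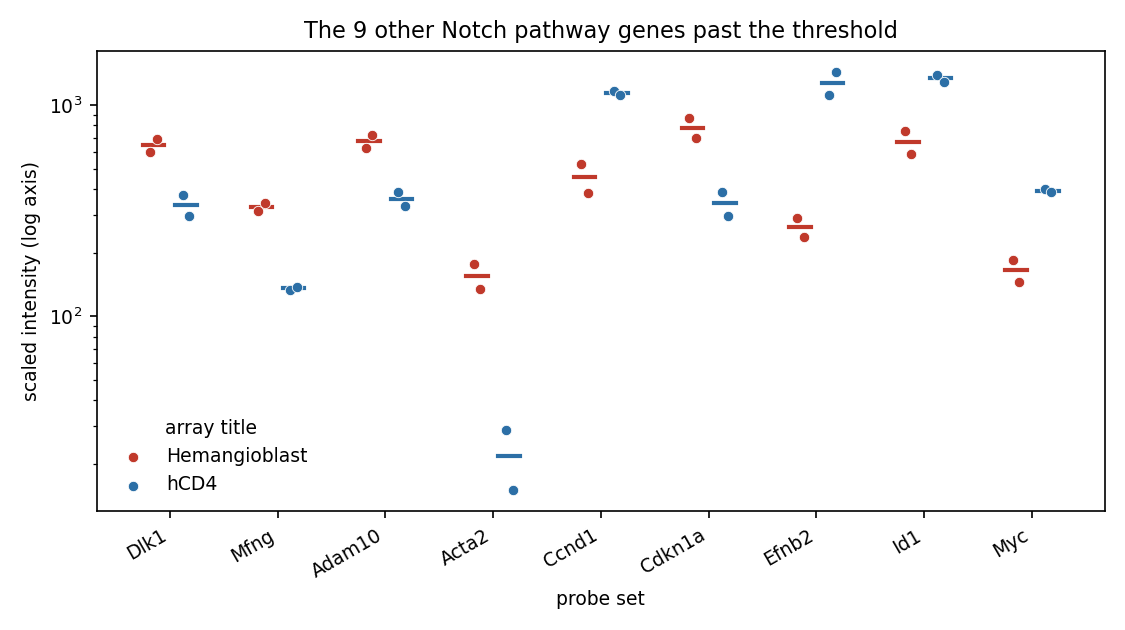
Scaled intensity (log axis) of the 9 further Notch pathway genes past the threshold, as points for each array and a line for the mean of each pair, Hemangioblast in red and hCD4 in blue. Dlk1, Mfng, Adam10, Acta2 and Cdkn1a are higher and Ccnd1, Efnb2, Id1 and Myc lower on both Hemangioblast arrays.

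The promoter windows of the 10 genes were searched for the binding motif of RBPJ in RefSeq sequence of build GRCm38.p6, in the 300 bases around each start. The table held 9 windows for 8 of the genes, and none for Hes1 and Hey1. On either strand, GTGGGAA was found in 0 of the 9 windows and in 6.38% of all 32851 windows, GTGAGAA in 0 and in 4.59%, and TGGGAA, a shorter stretch held within the first motif but not the second, in 0 and in 25.6%. This says only that these letters are not in those windows.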

How the data were processed

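The files deposited by the authors hold a linear intensity for each probe set on each array. How it was computed, background correction and scaling included, is not given in the sources used here. Per the labels' protocols, 20 ug of total RNA was labelled without amplification. All 4 value columns were used. Of 12488 probe sets, 66 controls were left out and 12422 tested, of which 10833 have 1 gene symbol in the platform annotation, 396 several and 1193 none.

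Each array was scaled to a common trimmed mean (2% trimmed at each end, factors 0.936 to 1.09), 16 was added and log2 taken, so folds of dim probe sets are understated. Levels are scaled intensities; changes are differences of the log2 values. The groups were compared with limma 3.58.1 (R 4.3.3; lmFit, eBayes with an intensity trend, 2 residual and 6.18 prior degrees of freedom), two-sided, with Benjamini-Hochberg adjustment over all 12422 probe sets and a threshold of 0.05. Exact permutation of 2 against 2 arrays, which cannot go below 0.333, was not used. A gene is represented by its brightest probe set, by the mean over all arrays. Log2 arrays of 1 group correlated across probe sets at 0.961 and 0.963, and arrays of different groups at 0.921 to 0.940. The number of arrays limits the precision (median SE of a log2 change 0.27). The fit was run on simulated arrays, with changes placed only in probe sets brighter than the median. The simulated spread depended on brightness alone, so that run does not bear on dim genes or on calls near the threshold. The genes, lists and tests were chosen with earlier results of these data known. Named were all probe sets of the 10 genes, and from the wider list the genes past the threshold and up to 3 per group with the smallest adjusted p. From each marker list up to 3 of the brightest could be named. Alternatives covered the constant, scaling, variance model, a filter at a mean of 100, the replicate number as a block, the mean of a gene's probe sets, and leaving out each array. Figures were drawn with matplotlib 3.10.9.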

Additional observations from a re-analysis of the deposited data

How the results depend on the processing

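For the 12 probe sets of the 10 Notch names, 132 of 141 recomputed changes kept their direction and their side of the threshold. The exceptions were 7 for Hes1, whose call was lost, and 2 for Jag2, whose sign turned. Of the 12 probe sets 11 were not called in the main fit, so their staying on that side of the threshold says little. With all arrays kept, Hes1 passed in 5 of 8 alternative fits. Hes1 changed by -0.78 with an added constant of 64, -0.89 without scaling and -0.91 without an intensity trend, and by -0.98 to -0.85 with 1 array left out. The counts of called probe sets and of called genes among the 10 names were 0 in place of 1 under each of these settings, leaving out an array included. Jag2 changed by -0.0064 with quantile normalization and by -0.048 to 0.32 with 1 array left out. The 9 further pathway genes became 2 without scaling or without an intensity trend, and 1 to 5 with 1 array left out. The 556 called probe sets (362 higher, 194 lower) became 272 without scaling (222 higher, 50 lower), 220 without an intensity trend, 853 with dim probe sets left out, and 219 to 517 with 1 array left out. The cause of these moves was not tested; leaving out an array leaves 1 residual degree of freedom, and the lone array of a group is then assumed to vary like the other group. With the replicate number as a block, the counts were 1 gene of the 10 names, 11 further pathway genes and 710 probe sets. The titles do not say whether same-numbered arrays share more than a number. Their deviations correlated at -0.01 over all probe sets and 0.13 over those with a mean of at least 100. With the block, no call on the 10 names changed. Dim readings limit Dll1, and 2 arrays per group limit every test.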
